A study of Macaca mulatta with 4 samples.

Results

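The genes described here are 40 genes of mitosis and the spindle checkpoint, chosen by name and looked up in a table of 21314 macaque genes. Of the 40, 37 had a matched Ensembl identifier, and all 37 passed the filter on low counts and were tested. For MAD2L1, AURKC and SPC25 the symbol was paired with no identifier in the table, and they were not analysed here. RNA was sequenced from morulae of the rhesus macaque (Macaca mulatta), solid clusters of cells that form before the blastocyst cavity. The libraries were 2 of gynogenetic (GG) embryos, whose nuclear genome is of maternal origin only, and 2 of androgenetic (AG) embryos, whose nuclear genome is of paternal origin only. Biparental embryos were not analysed here, so each difference is between the 2 uniparental groups. The labels give no strain, age or sex, leave the number of embryos in a library unclear and do not say whether replicates came from separate animals. The p-values therefore measure only the spread between these libraries, which may be partly technical.

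In mitosis, the kinase CDK1 with a B-type cyclin drives the cell into division, and the Aurora and Polo kinases build the spindle. Kinetochores, protein assemblies on each centromere, tie chromosomes to microtubules, and the spindle checkpoint holds back the anaphase-promoting complex until every chromosome is attached. That complex then has securin and cyclin B destroyed, separase is freed to part the sister chromatids, and the cell divides along the central spindle. Early embryos divide with RNAs stored by the oocyte and later with RNAs that they transcribe themselves.

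Total estimated counts were 21335844 and 29733897 in GG replicates 1 and 2, and 14129529 and 19108657 in AG replicates 1 and 2. Over all genes in the table, the Spearman correlation was 0.959 between the GG libraries, 0.935 between the AG libraries and 0.882 to 0.908 across groups. Of 8 morula markers, 7 matched, and they summed to 1154 and 1523 CPM in GG replicates 1 and 2, against 1866 and 1551 CPM in AG replicates 1 and 2 (CPM is the count scaled to the library's total over tested genes, times 1e6). ZSCAN4, a marker of embryonic genome activation, made up most of the AG sums, with 3.22 and 1.32 CPM in GG, against 1325 and 1024 CPM in AG. Without it, a choice made after its values were seen, the morula sums were 1151 and 1521 CPM in GG, against 541 and 527 CPM in AG. DPPA2 and CDH1 were higher in GG, and DPPA4, KLF17 and ZSCAN4 were lower. The 7 matched sperm markers summed to 0 and 0.0682 CPM in the GG libraries and 0.641 and 0.254 CPM in the AG libraries, and 4 of them, PRM2 and TNP2 included, were at 0 in every library. The 6 matched cumulus and granulosa markers summed to 3.62 and 12.4 CPM in GG and 5.63 and 1.33 CPM in AG, and the 5 matched oocyte markers to 12.9 and 5.49 CPM in GG and 5.98 and 3.76 CPM in AG. The 7 matched blood cell markers summed to 10.2 and 8.75 CPM in GG and 155 and 67.8 CPM in AG. PTPRC, the general leukocyte marker, had 6.46 and 3.44 CPM in GG, against 141 and 65.9 CPM in AG. Without it, a choice made after its values were seen, the blood cell sums were 3.78 and 5.30 CPM in GG and 14.1 and 1.97 CPM in AG. Of 5 blood cell markers tested, 2 were called lower in GG, PTPRC among them. The part of these markers in the results below was not tested, and in bulk RNA fewer cells in division cannot be told apart from less of an RNA in each cell.

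Most mitosis genes were not called between the groups, and the few that were called mostly fell in GG. With 2 libraries a group, a gene that was not called may still differ. TTK, the kinase that starts checkpoint signalling, was higher in GG by 3.13-fold. The kinetochore scaffold gene KNL1, the central spindle motor gene KIF23, the spindle assembly factor gene TPX2, the separase gene ESPL1 and the securin gene PTTG1 fell in GG by 2.06-fold to 4.39-fold. The remaining 31 were not called, and 29 of the 37 had a fitted change under 2-fold, as did 58.2% of all tested genes and 64.8% of those with a mean of at least 10 CPM.

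The threshold for a call was an adjusted p of 0.05 in edgeR's quasi-likelihood test over 13227 genes. The 1 member called higher is 2.70% of 37, where 6.34% of all tested genes were called higher in GG. The 5 called lower are 13.5%, where 6.58% were called lower. The median log2 fold change, GG minus AG, was -0.036 over the members and 0.036 over all tested genes, with 18 members above 0 and 19 below. Both GG libraries lay above both AG libraries for 9 members, where 33.4% of all tested genes did so, and below both for 15, where 30.8% did so. An unadjusted p under 0.05 was reached by 12 members, where 32.0% of all tested genes reached it. DESeq2 called 2 members higher and 9 lower, where it called 12.2% and 12.9% of all tested genes. All 6 edgeR calls held without AG replicate 1 or AG replicate 2. In those fits the lone AG library was assumed to vary like the GG pair, which is the closer pair (median ratio of the higher to the lower library 1.28 in GG and 1.51 in AG over all tested genes), so every p given without an AG library may be too small. They ended without GG replicate 1 (adjusted p = 0.140 to 0.264) and without GG replicate 2 (0.178 to 0.306). In those fits edgeR called 0 members and had 6 and 5 of the 37 at an unadjusted p under 0.05, where 18.7% and 17.3% of all genes were. Of all genes, 0.514% were called higher and 0.393% lower without GG replicate 1, and 0.31% and 0.212% without GG replicate 2, and the lone GG library was assumed to vary like the AG pair.

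**Figure D1:**
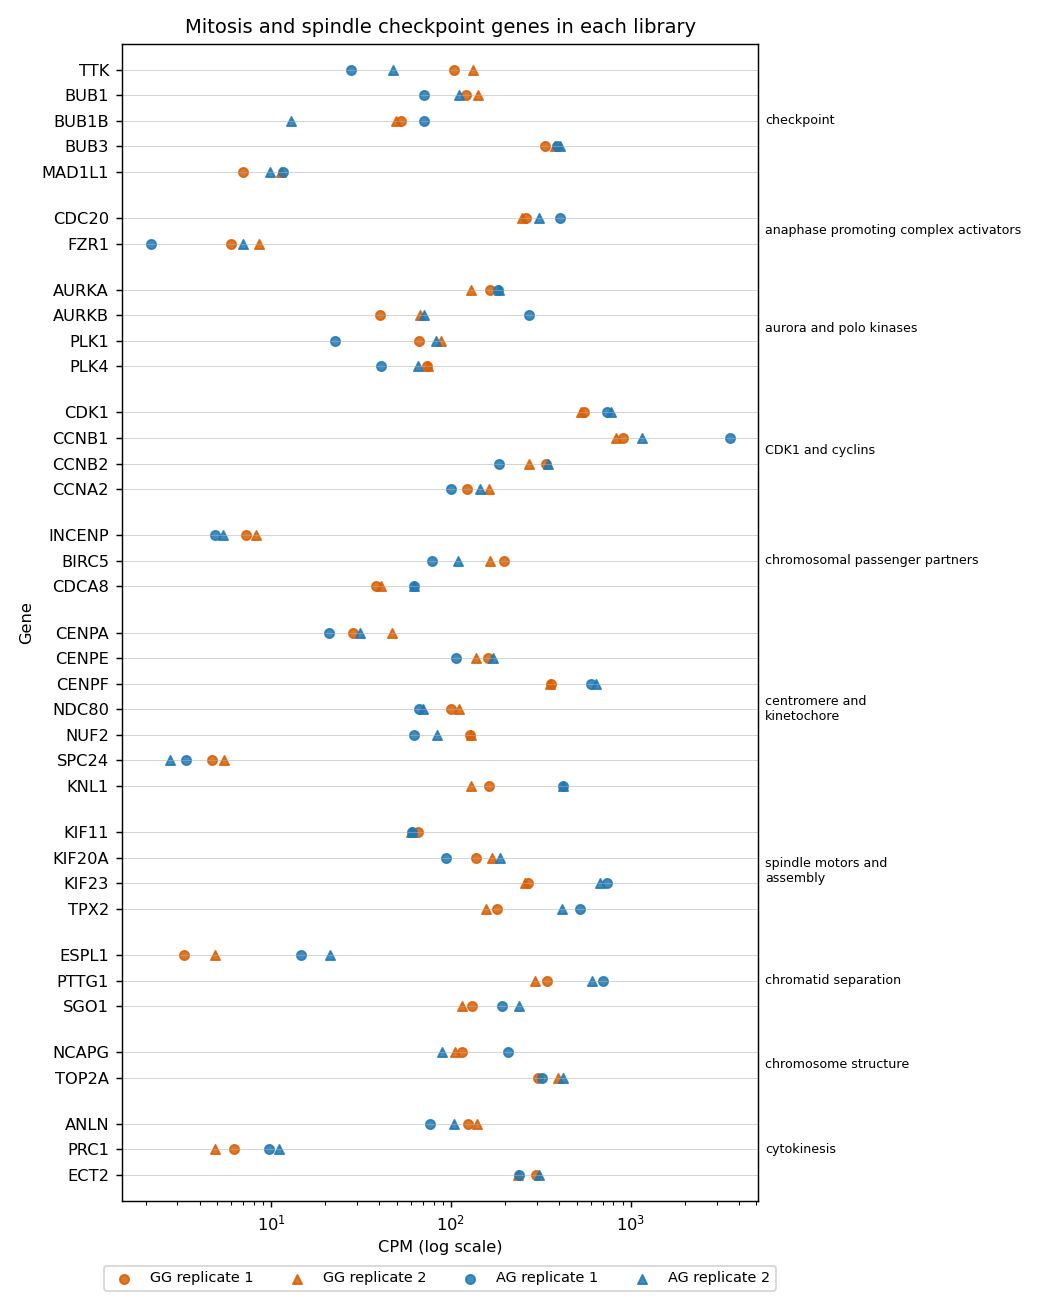
Level of each of the 37 tested genes in CPM (log scale) in every library, grouped by role, with circles for replicate 1 and triangles for replicate 2. TTK stands at 104 and 132 CPM in GG, to the right of both AG libraries, and KNL1, KIF23, TPX2, ESPL1 and PTTG1 stand to the left of both AG libraries in GG.

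Among the checkpoint genes, 1 of 5 tested was called, higher in GG, where 6.34% of all tested genes were. TTK (ENSMMUG00000020207), also known as MPS1, phosphorylates KNL1 to recruit the BUB proteins. It had 104 and 132 CPM in GG replicates 1 and 2, against 27.7 and 47.6 CPM in AG replicates 1 and 2. Its 4 libraries did not overlap by group, and both AG libraries were low (log2 fold change 1.65 ± 0.37 SE, edgeR adjusted p = 0.0448, 0.177 and 0.268 without GG replicate 1 or 2). BUB1, a kinase that docks on KNL1, had 121 and 141 CPM in GG, against 70.9 and 111 CPM in AG. Both GG libraries were above both AG libraries, but AG replicate 2 lay close to GG replicate 1 and the gene was not called (adjusted p = 0.317). BUB3, the adaptor that carries BUB1 to KNL1, had 335 and 378 CPM in GG and 389 and 405 CPM in AG, with a log2 fold change of -0.15 ± 0.22. MAD1L1, which brings MAD2 to unattached kinetochores, had 6.93 and 11.4 CPM in GG and 11.7 and 9.80 CPM in AG, and the groups overlapped. BUB1B, a subunit of the inhibitor of CDC20, is given with the genes that differed between the AG libraries.

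The 2 activators of the anaphase-promoting complex were not called, and 0 had an unadjusted p under 0.05 or were called by DESeq2. Over all tested genes, edgeR called 6.34% higher and 6.58% lower, and DESeq2 called 12.2% and 12.9%. An unadjusted p under 0.05 was reached by 32.0%, so a count of 0 of 2 says little. CDC20, which activates the complex at anaphase, had 261 and 249 CPM in GG, against 405 and 310 CPM in AG (log2 fold change -0.49 ± 0.24, adjusted p = 0.231). The groups did not overlap, and AG replicate 1 was the highest library. Without AG replicate 2 its adjusted p was 0.0432, and without AG replicate 1 it was 0.379. FZR1, which takes over from CDC20 at the end of mitosis, had 5.98 and 8.59 CPM in GG and 2.14 and 6.96 CPM in AG, where replicate 1 was the lowest of the 4 libraries.

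Of 3 genes of chromatid separation tested, 2 were called lower in GG, where 6.58% of all tested genes were. Both GG libraries lay below both AG libraries for all 3, where 30.8% of all tested genes did so. ESPL1 (ENSMMUG00000022021) encodes separase, the protease that cuts cohesin. It had 3.28 and 4.88 CPM in GG, against 14.6 and 21.3 CPM in AG. Its level was 4.39-fold lower in GG, the largest fitted change of the 37 genes (log2 fold change -2.13 ± 0.47 SE, adjusted p = 0.0433, 0.264 and 0.201 without GG replicate 1 or 2). PTTG1 (ENSMMUG00000023077) encodes securin, which holds separase inactive until anaphase. It had 343 and 292 CPM in GG, against 700 and 607 CPM in AG, which is lower by 2.06-fold (log2 fold change -1.04 ± 0.23 SE, adjusted p = 0.0425, 0.218 and 0.306 without GG replicate 1 or 2). The RefSeq gene table also names PTTG2 and PTTG3P, relatives of PTTG1 that could share its reads, so its value is uncertain. SGO1, the shugoshin that guards centromeric cohesin, had 130 and 115 CPM in GG, against 191 and 239 CPM in AG. It was not called (log2 fold change -0.81 ± 0.26, adjusted p = 0.0928). Its adjusted p was 0.0365 without AG replicate 1, 0.0690 without AG replicate 2 and 0.0442 with DESeq2.

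Of 4 Aurora and Polo kinase genes tested, 0 were called in edgeR, 1 had an unadjusted p under 0.05 and 1, AURKB, was called lower by DESeq2. Of all tested genes, 32.0% had an unadjusted p under 0.05, and DESeq2 called 12.9% lower. AURKA, the Aurora kinase of centrosomes and spindle poles, had 164 and 129 CPM in GG, against 183 and 186 CPM in AG (log2 fold change -0.33 ± 0.25, adjusted p = 0.417). PLK4, which starts centriole duplication, had 73.7 and 74.8 CPM in GG and 40.8 and 65.4 CPM in AG, so that AG replicate 2 lay nearer to GG than to AG replicate 1 in fold. AURKB, the Aurora kinase of the centromere and central spindle, and PLK1, a kinase of mitotic entry and spindle assembly, differed more between the AG libraries than between the GG libraries. AURKB had 40.3 and 67.4 CPM in GG, against 271 and 70.7 CPM in AG, and PLK1 66.4 and 88.3 CPM in GG, against 22.7 and 82.8 CPM in AG. In AURKB, replicate 1 of AG was high while replicate 2 was next to GG, and in PLK1 replicate 1 of AG was low (adjusted p = 0.151 and 0.580). Against AG replicate 1 alone, with the spread of the GG pair, the log2 fold changes were -2.35 for AURKB and 1.75 for PLK1 (adjusted p = 0.00668 and 0.0157). Against AG replicate 2 alone they were -0.39 and -0.098 (adjusted p = 0.512 and 0.846). The DESeq2 adjusted p of AURKB was 0.0367.

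CDK1 and 3 cyclins had 0 of 4 called in edgeR, 1 at an unadjusted p under 0.05 and 1, CCNB1, called lower by DESeq2. The shares of all tested genes were 32.0% at an unadjusted p under 0.05 and 12.9% called lower by DESeq2. CDK1 had 548 and 528 CPM in GG, against 741 and 779 CPM in AG. The libraries of each group lay close together and the groups did not overlap, with a log2 fold change of -0.50 ± 0.21 (adjusted p = 0.163). CCNB1, the main mitotic cyclin, had 905 and 831 CPM in GG, against 3543 and 1151 CPM in AG. AG replicate 1 stood far above the other libraries (log2 fold change -1.44 ± 0.52, adjusted p = 0.123), and the gene passed with DESeq2 (0.0342) and without a filter on low counts (0.0302). Its log2 fold change was -2.06 without AG replicate 2 (adjusted p = 0.00169) and -0.41 without AG replicate 1 (adjusted p = 0.216). CCNB2, the B-type cyclin of the Golgi, had 339 and 270 CPM in GG and 185 and 346 CPM in AG, and the groups overlapped. CCNA2, the cyclin of S phase and mitotic entry, had 123 and 162 CPM in GG and 100 and 145 CPM in AG, also with overlap. In AG replicate 1, then, CCNB1 was the highest of the 4 libraries while CCNB2 and CCNA2 were the lowest.

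The partners of AURKB in the chromosomal passenger complex did not share a direction. In edgeR 0 of 3 were called, where 6.34% of all tested genes were called higher and 6.58% lower. BIRC5, or survivin, which binds the complex to centromeric histone H3, had 198 and 165 CPM in GG, against 78.8 and 109 CPM in AG (log2 fold change 0.95 ± 0.29, adjusted p = 0.0843). Its adjusted p was 0.0188 without AG replicate 2, 0.0911 without AG replicate 1 and 0.0341 with DESeq2. CDCA8, or borealin, had 38.3 and 40.7 CPM in GG, against 62.5 and 62.6 CPM in AG (log2 fold change -0.66 ± 0.28). INCENP, the scaffold of the complex, had 7.22 and 8.29 CPM in GG and 4.84 and 5.38 CPM in AG. The groups did not overlap for any of the 3, with GG above AG for BIRC5 and INCENP and below AG for CDCA8. Over all tested genes, 33.4% lay above and 30.8% below without overlap. BIRC5 alone was at an unadjusted p under 0.05, where 32.0% of all tested genes were.

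At the kinetochore, KNL1 was called and the subunits of the NDC80 complex were not. KNL1 (ENSMMUG00000048910) is the scaffold on which BUB1 and BUB3 dock. It had 163 and 129 CPM in GG, against 418 and 422 CPM in AG, which is lower by 2.88-fold (log2 fold change -1.53 ± 0.24 SE, adjusted p = 0.0240, 0.140 and 0.198 without GG replicate 1 or 2). Both AG libraries stood at nearly the same level, far above both GG libraries. NDC80 and NUF2, which grip the microtubule, went the other way in level, with 99.6 and 110 CPM for NDC80 in GG, against 66.8 and 70.1 CPM in AG. NUF2 had 128 and 129 CPM in GG, against 62.2 and 84.1 CPM in AG. SPC24, which anchors the complex, had 4.70 and 5.47 CPM in GG, against 3.35 and 2.74 CPM in AG. For all 3, both GG libraries were above both AG libraries, where 33.4% of all tested genes were. The 3 had log2 fold changes of 0.62 ± 0.26, 0.81 ± 0.28 and 0.74 ± 0.53 and adjusted p of 0.170, 0.113 and 0.387. The adjusted p of NUF2 was 0.0301 without AG replicate 2 and 0.129 without AG replicate 1.

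Of the other centromere genes, CENPF, a large kinetochore protein, had 359 and 356 CPM in GG, against 598 and 644 CPM in AG. It narrowly missed the threshold in edgeR (log2 fold change -0.80 ± 0.21, adjusted p = 0.0617), and passed with DESeq2 (0.0285) and with a minimum mean of 10 CPM (0.0451). In edgeR it did not pass with other scalings (0.0575 and 0.0681), without a filter (0.0530), after thinning (0.0557) or with the replicate number as a block (0.0877). Its log2 fold change was -0.85 and -0.77 without AG replicate 1 or 2, and -0.80 and -0.82 without GG replicate 1 or 2. CENPA, the histone H3 variant that marks the centromere, had 28.4 and 47.2 CPM in GG and 21.0 and 31.3 CPM in AG. CENPE, a kinetochore motor, had 161 and 137 CPM in GG and 106 and 172 CPM in AG. The groups overlapped for CENPA and CENPE.

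Of 4 genes of spindle motors and spindle assembly, KIF23 and TPX2 fell in GG, and KIF11 and KIF20A were not called. Of all tested genes, 6.58% were called lower in GG. KIF23 (ENSMMUG00000014887) encodes the motor of centralspindlin, the complex that organises the central spindle for cell division. It had 269 and 257 CPM in GG, against 738 and 678 CPM in AG, and was 2.69-fold lower in GG. With the smallest adjusted p of the 37 genes, its log2 fold change was -1.43 ± 0.22 SE (adjusted p = 0.0213, 0.157 and 0.178 without GG replicate 1 or 2). TPX2 (ENSMMUG00000000966), which activates AURKA and seeds microtubules near chromosomes, had 181 and 157 CPM in GG, against 522 and 417 CPM in AG. TPX2 was lower by 2.78-fold (log2 fold change -1.47 ± 0.25 SE, adjusted p = 0.0262, 0.161 and 0.205 without GG replicate 1 or 2). For both genes the gap between groups was wide against the spread within either group.

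KIF11, the motor that pushes spindle poles apart, had 65.6 and 60.1 CPM in GG and 60.3 and 60.8 CPM in AG, a log2 fold change of 0.053 ± 0.27. All 4 libraries lay within a narrow range. KIF20A, a central spindle motor like KIF23, had 137 and 169 CPM in GG and 94.4 and 187 CPM in AG. Its AG libraries lay on either side of both GG libraries (log2 fold change 0.12 ± 0.38).

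Genes of chromosome structure and cytokinesis had 0 of 2 and 0 of 3 called in edgeR or DESeq2. At an unadjusted p under 0.05 there were 0, where 32.0% of all tested genes were. Over all tested genes, edgeR called 6.34% higher and 6.58% lower, and DESeq2 called 12.2% and 12.9%. Counts this small say little about these genes. TOP2A, which untangles sister DNA, had 307 and 392 CPM in GG and 321 and 417 CPM in AG, with a log2 fold change of -0.078 ± 0.26. NCAPG, a condensin subunit, had 116 and 105 CPM in GG and 207 and 89.6 CPM in AG, so that the AG libraries lay on either side of GG. Its log2 fold change was -0.94 without AG replicate 2 (adjusted p = 0.0258) and 0.30 without AG replicate 1 (adjusted p = 0.440). ANLN, the contractile ring scaffold anillin, had 124 and 140 CPM in GG and 76.7 and 104 CPM in AG (log2 fold change 0.55 ± 0.28). PRC1, which bundles the microtubules of the central spindle, had 6.24 and 4.85 CPM in GG, against 9.71 and 11.1 CPM in AG (log2 fold change -0.91 ± 0.45, adjusted p = 0.226). ECT2, which switches on RhoA at the division plane, had 296 and 237 CPM in GG and 239 and 307 CPM in AG. ANLN and PRC1 did not overlap by group, in opposite directions, and ECT2 overlapped. Over all tested genes, 33.4% lay with both GG libraries above both AG libraries and 30.8% with both below.

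**Figure D2:**
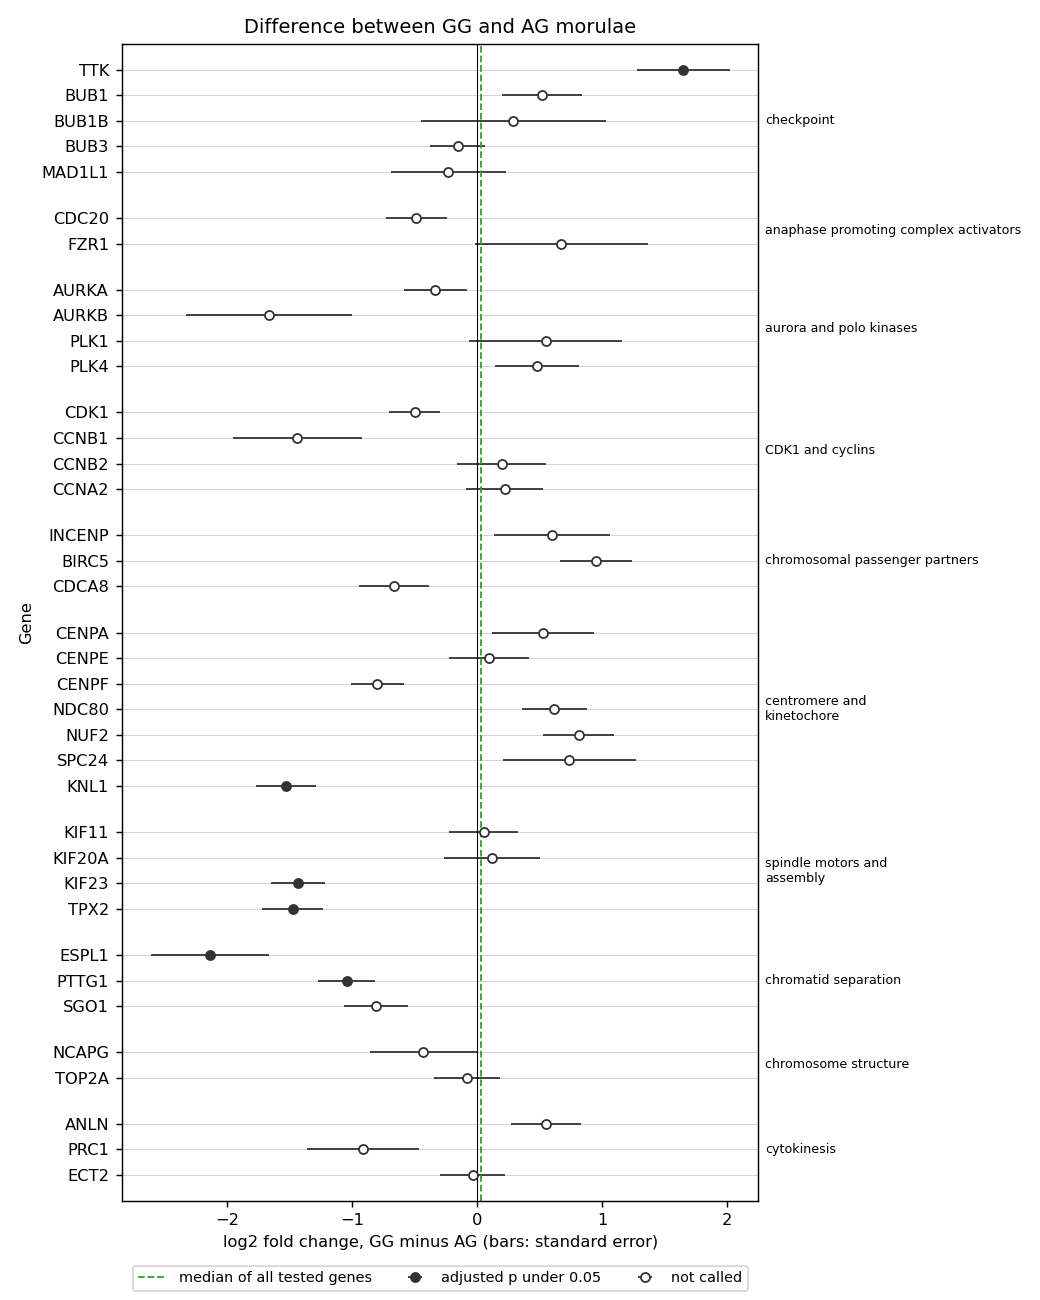
Log2 fold change, GG minus AG, of the 37 tested genes by role, with bars for the standard error and filled points for an adjusted p under 0.05. The filled points are TTK at 1.65 and 5 genes between -2.13 and -1.04, and the dashed line is the median of all tested genes at 0.036.

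The AG libraries differed from each other in single mitosis genes more than the GG libraries did, as they did over all genes. At least 2-fold apart between AG replicates 1 and 2 were 6 of the 37 genes, where 28.8% of all tested genes were, and 20.0% of those with a mean of at least 10 CPM. The 6 were BUB1B, AURKB, PLK1, FZR1, CCNB1 and NCAPG, at ratios of the higher to the lower library of 5.46, 3.83, 3.65, 3.26, 3.08 and 2.31. Between the GG libraries 0 of 37 were that far apart, the highest ratio being 1.67 for AURKB, where 16.2% of all tested genes were, and 5.18% of those with a mean of at least 10 CPM. The median ratio of the higher to the lower library over the 37 genes was 1.17 in GG and 1.31 in AG, and over all tested genes 1.28 in GG and 1.51 in AG.

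BUB1B, which encodes BUBR1, had 52.7 and 49.6 CPM in GG, against 70.7 and 13.0 CPM in AG. AG replicate 1 stood above both GG libraries and AG replicate 2 far below them. Its direction depended on the AG library. Both GG libraries were higher than AG replicate 2 by 1.98 on the log2 scale (adjusted p = 0.0156), and the log2 fold change against AG replicate 1 was -0.50 (adjusted p = 0.210), both with the spread of the closer GG pair. AG replicate 1 was the higher of the AG libraries for BUB1B, AURKB, CCNB1 and NCAPG, and the lower for PLK1 and FZR1. Against AG replicate 1 alone, again with the spread of the GG pair, 4 members were called higher and 10 lower in GG, where 15.8% and 14.0% of all genes were. Against AG replicate 2 alone, 2 were called higher and 7 lower, where 9.03% and 8.54% of all genes were.

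**Figure D3:**
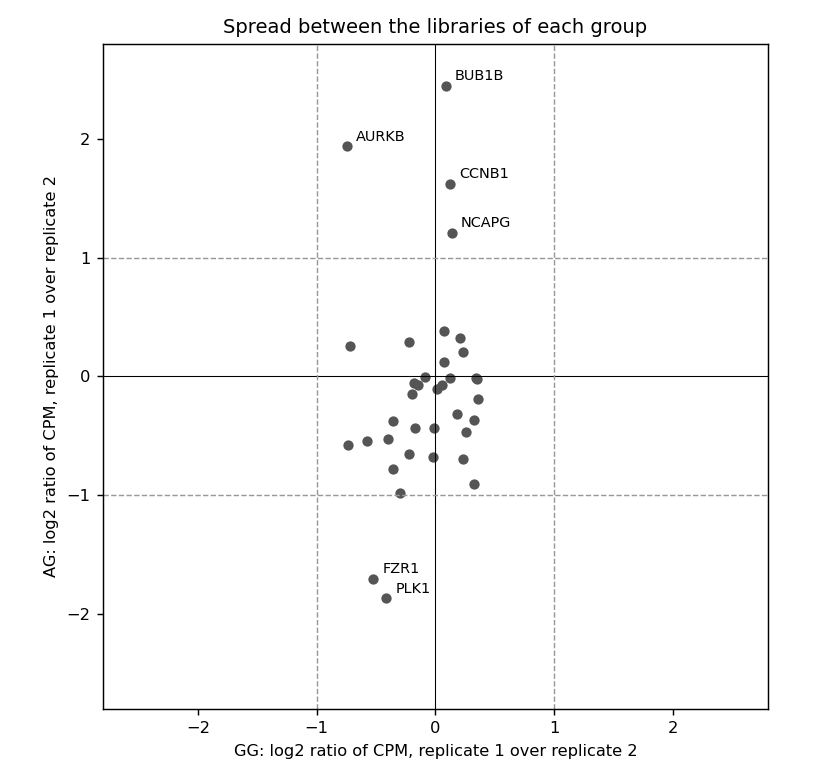
Log2 ratio of CPM between replicates 1 and 2 of each of the 37 genes, in GG on the horizontal and in AG on the vertical axis, with dashed lines at a 2-fold ratio. All points lie within the dashed lines for GG, and the 6 named genes lie outside them for AG.

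**Figure D4:**
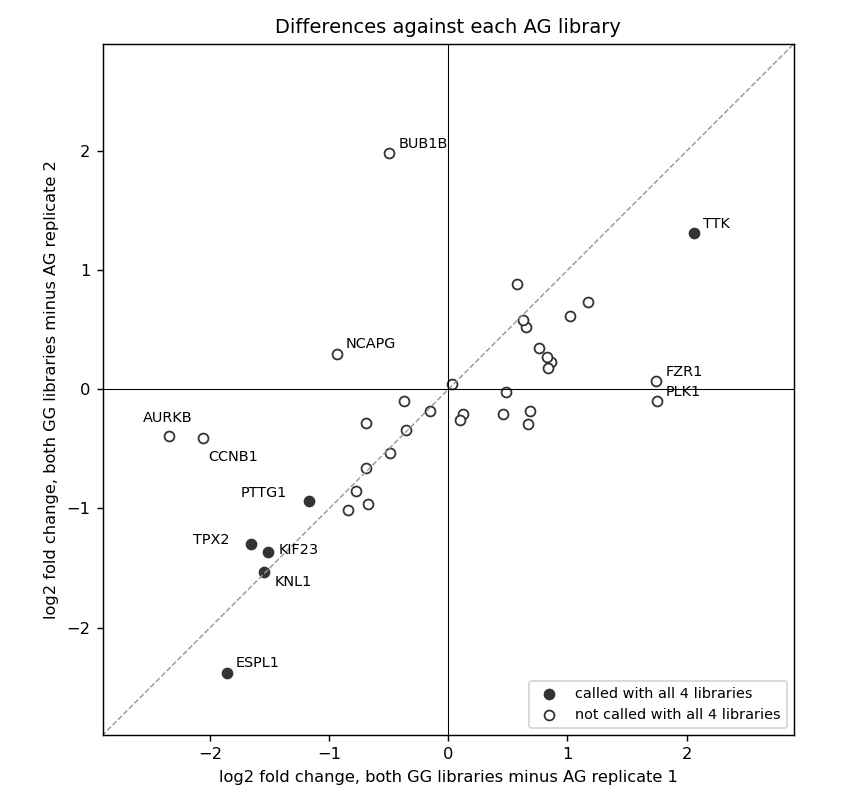
Log2 fold change of the 37 genes for both GG libraries against AG replicate 1 alone (horizontal) and AG replicate 2 alone (vertical), with a dashed line of equality. The 6 filled genes, called with all 4 libraries, keep their direction on both axes, while BUB1B lies at -0.50 and 1.98.

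Ratios of reads between partners within a library do not depend on library scaling. The pairs were chosen with values in view, the ratios are of reads and not of molecules, and their differences between groups were not tested. Reads of TPX2 per read of its partner AURKA were 1.10 and 1.22 in GG, against 2.86 and 2.24 in AG. Reads of KNL1 per read of NDC80, its neighbour in the outer kinetochore, were 1.64 and 1.17 in GG, against 6.27 and 6.03 in AG. The groups did not overlap in either ratio.

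Reads of the checkpoint kinase gene TTK per read of its substrate gene KNL1 were 0.636 and 1.03 in GG, against 0.0663 and 0.113 in AG. Reads of securin, PTTG1, per read of separase, ESPL1, were 105 and 59.8 in GG, against 48.0 and 28.5 in AG. Both genes fell in GG, and GG was above AG in this ratio in each library. Reads of KIF23 per read of RACGAP1, the other subunit of centralspindlin, were 4.33 and 4.87 in GG and 4.84 and 4.24 in AG, so that the groups overlapped.

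For CCNB1 per read of CCNB2, the ratio was 2.67 and 3.08 in GG and 19.2 and 3.33 in AG. AG replicate 1 stood apart, and AG replicate 2 was close to GG. For AURKA per read of AURKB, it was 4.08 and 1.91 in GG and 0.676 and 2.63 in AG, which overlapped, again with AG replicate 1 the lowest library.

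Beyond the 40 genes, 136 further genes of mitosis were listed, of which 118 matched and 116 were tested. They include a list of meiotic relatives, and WEE2, called higher in GG, is from that list. Of the 116, 3 were higher (2.59%) and 10 were lower (8.62%) in GG, where 6.34% and 6.58% of all tested genes were. The other 103 were not called, and the median log2 fold change was -0.091, against 0.036 over all tested genes. All 13 calls ended without GG replicate 1 (adjusted p = 0.101 to 0.267) and without GG replicate 2 (0.0617 to 0.313), where edgeR called 0 and had 15 and 12 of 116 at an unadjusted p under 0.05, where 18.7% and 17.3% of all genes were. DESeq2 called 10 higher and 17 lower, where it called 12.2% and 12.9% of all genes. Without AG replicate 2, 14 were called higher and 27 lower, where 15.8% and 14.0% of all genes were. Without AG replicate 1, 8 were called higher and 11 lower, where 9.03% and 8.54% were.

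Among subunits and enzymes of the anaphase-promoting complex, 1 of 12 tested was called, lower in GG, where 6.58% of all tested genes were. UBE2S, the enzyme that extends ubiquitin chains for the complex, had 119 and 92.3 CPM in GG, against 330 and 445 CPM in AG (log2 fold change -1.88 ± 0.29 SE, adjusted p = 0.0214, 0.120 and 0.168 without GG replicate 1 or 2). Of 8 inhibitors of the complex and checkpoint silencing genes, 1 was called, also lower, against the same 6.58%. FBXO5, or EMI1, which inhibits the complex before mitosis, had 123 and 100.2 CPM in GG, against 358 and 294 CPM in AG (log2 fold change -1.55 ± 0.26 SE, adjusted p = 0.0262, 0.154 and 0.206 without GG replicate 1 or 2). In both genes the groups stood well apart.

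Centromere and kinetochore genes outside the 40 had 1 higher (4.55%) and 3 lower (13.6%) of 22 tested, where 6.34% and 6.58% of all tested genes were. CENPL and CENPQ, of the constitutive centromere network, were lower in GG. CENPL had 15.8 and 14.4 CPM in GG, against 106 and 96.9 CPM in AG (log2 fold change -2.75 ± 0.30 SE, adjusted p = 0.0118, 0.101 and 0.118 without GG replicate 1 or 2). CENPQ had 41.3 and 38.6 CPM in GG, against 177 and 93.0 CPM in AG (adjusted p = 0.0422, 0.216 and 0.249 in the same fits). SKA2, of the complex that couples kinetochores to shrinking microtubules, had 99.9 and 79.2 CPM in GG, against 249 and 186 CPM in AG (adjusted p = 0.0442, 0.210 and 0.313). NSL1, of the MIS12 complex that holds KNL1 and NDC80 at the kinetochore, was higher in GG, at 44.8 and 46.1 CPM, against 15.9 and 17.8 CPM in AG (adjusted p = 0.0413, 0.249 and 0.293).

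Spindle and centrosome genes had 1 higher (3.33%) and 5 lower (16.7%) of 30 tested, where 6.34% and 6.58% of all tested genes were. KIF2C, a microtubule-depolymerising motor, had 74.0 and 73.8 CPM in GG, against 320 and 232 CPM in AG (log2 fold change -1.90 ± 0.28 SE, adjusted p = 0.0202, 0.149 and 0.164 without GG replicate 1 or 2). RACGAP1, which joins KIF23 in centralspindlin, had 62.3 and 52.7 CPM in GG, against 153 and 160 CPM in AG (log2 fold change -1.44 ± 0.26, adjusted p = 0.0296, 0.188 and 0.246). KIF23 and RACGAP1 thus both fell in GG. NUSAP1, a microtubule-bundling protein, had 219 and 193 CPM in GG, against 989 and 495 CPM in AG (adjusted p = 0.0366, 0.169 and 0.206).

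HAUS6, of augmin, the complex that branches spindle microtubules, had 37.4 and 31.3 CPM in GG, against 132 and 116 CPM in AG (adjusted p = 0.0217, 0.150 and 0.191 without GG replicate 1 or 2). HAUS1 and STIL were chosen after their values were seen. HAUS1, also of augmin, went the other way, with 96.8 and 113 CPM in GG, against 44.2 and 33.2 CPM in AG (adjusted p = 0.0392, 0.198 and 0.289). Reads of HAUS1 per read of HAUS6 were 2.59 and 3.60 in GG, against 0.333 and 0.285 in AG. STIL, which builds new centrioles with PLK4, had 82.3 and 81.4 CPM in GG, against 219 and 166 CPM in AG (adjusted p = 0.0415, 0.267 and 0.285).

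Mitotic entry and exit genes and condensin and cohesin genes had 0 of 20 and 0 of 21 called in edgeR, with 7 and 7 at an unadjusted p under 0.05, where 32.0% of all tested genes were. DESeq2 called 2 higher and 4 lower of the mitotic entry and exit genes, and 2 higher and 1 lower of the condensin and cohesin genes. Of all tested genes it called 12.2% higher and 12.9% lower. Among 4 tested meiotic relatives, WEE2, the oocyte kinase that restrains CDK1, was higher in GG, where 6.34% of all tested genes were. It had 73.8 and 18.4 CPM in GG, against 1.14 and 2.95 CPM in AG (log2 fold change 4.47 ± 0.88 SE, adjusted p = 0.0340, 0.150 and 0.0617 without GG replicate 1 or 2). The GG libraries differed by 4.01-fold in WEE2, and both were above both AG libraries.

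**Figure D5:**
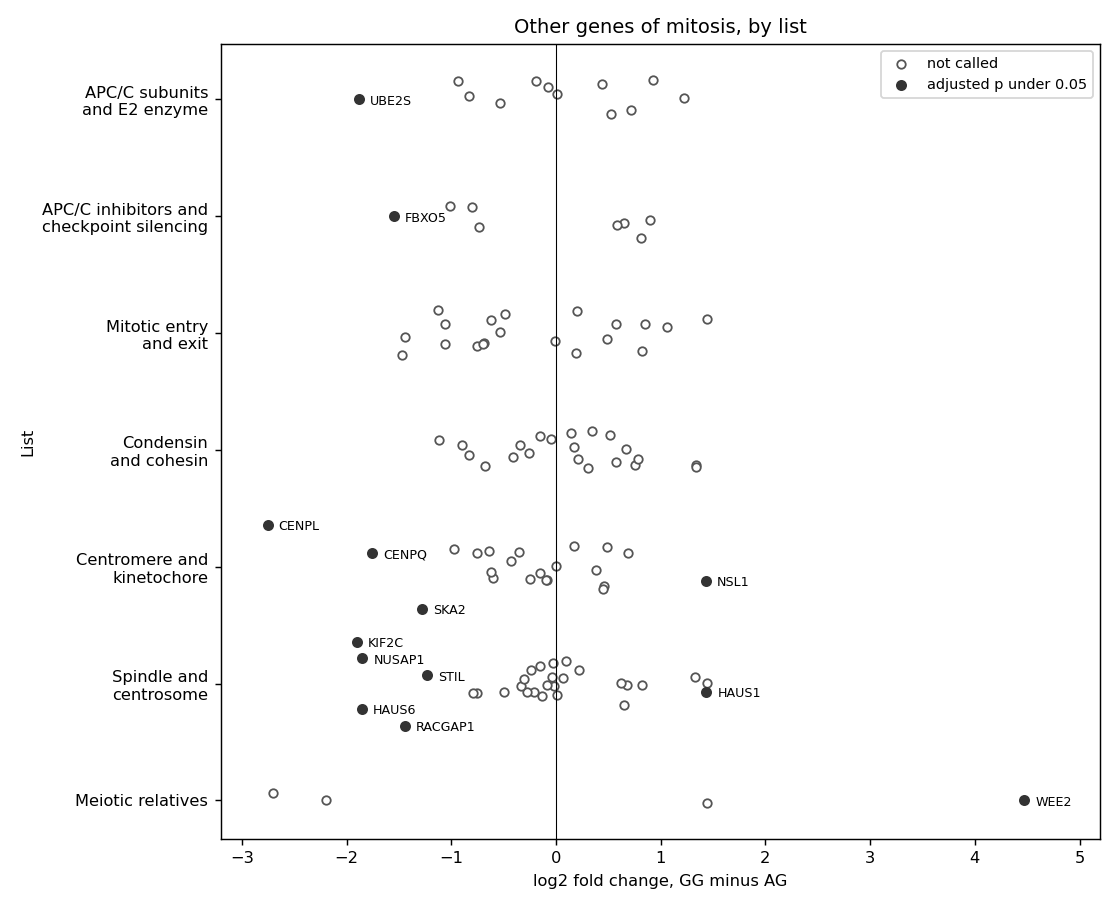
Log2 fold change, GG minus AG, of the further mitosis genes by list, with filled and named points for an adjusted p under 0.05. Called genes lie between -2.75 for CENPL and 4.47 for WEE2, and 0 points are filled for mitotic entry and exit or for condensin and cohesin.

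Of 15 tested G1 cyclins, CDK inhibitors and related genes, 1 was higher (6.67%) and 3 were lower (20.0%) in GG. Of all tested genes, 6.34% were higher and 6.58% lower. CCNE2, a cyclin of S phase entry, had 1.14 and 1.23 CPM in GG, against 10.04 and 9.45 CPM in AG (log2 fold change -3.03 ± 0.52 SE, adjusted p = 0.0272, 0.173 and 0.178 without GG replicate 1 or 2). CDK6, a G1 kinase, had 12.0 and 11.8 CPM in GG, against 1.65 and 0.712 CPM in AG (adjusted p = 0.0308, 0.149 and 0.167). CCNA1, the cyclin A of germ cells and early embryos, had 1.24 and 1.36 CPM in GG, against 414 and 234 CPM in AG, and remained called in both fits (adjusted p = 0.00488, 0.0336 and 0.0397). E2F2, a transcription factor of the cell cycle, had 0 and 4 counts in GG, against 54 and 68 counts in AG (adjusted p = 0.0397, 0.149 and 0.110). CCNA2, the relative of CCNA1 among the 40 genes, was not called.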

How the data were processed

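The deposited values are estimated counts per Ensembl gene, 1 column per library: 30.0% to 32.2% of them are not whole and library totals differ, so they were not scaled to depth. The submitters' processing notes name Trim Galore, STAR 2.6.0c, Salmon 0.12.0 and rheMac8 but no role for any. Strand, filters and annotation release are not given in the sources. Reads of near copies may be split in such estimates. The labels' protocols name SMARTer amplification and no molecular identifiers.

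A symbol was paired with 14654 of the 21314 identifiers (68.8%), and the identifier with most reads was kept for each symbol. After rounding, edgeR 4.0.16 (R 4.3.3) fitted a quasi-likelihood model with group as its only term, after filterByExpr (minimum count 10, minimum total 15) and TMM scaling. The Benjamini-Hochberg adjustment covered 13227 genes, and SEs were derived from the F values. CPM divides by the TMM-adjusted total of tested genes. The code was tested on simulated data. Alternatives were DESeq2 1.42.0, other scalings and filters, thinning to the smallest total, each library left out and a replicate block.

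The members, lists and alternatives were chosen with earlier results of these data known. Values are given for all 37 tested members and, from each other list, for up to 4 called genes with the smallest p. Other genes are marked as chosen after their values were seen.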

Additional observations from a re-analysis of the deposited data

How the results depend on the processing

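The 6 member calls held under the 7 alternatives that kept all 4 libraries, and no named gene changed sign there. DESeq2 called 1619 genes higher and 1708 lower in GG, 2 and 9 members, and 10 and 17 further mitosis genes. Without a filter, 1360 genes were lower, and 7 further mitosis genes were higher; that count was 6 with a minimum mean of 10 CPM and 6 after thinning. These rises in count come with other tested genes, other depth or another test, and their cause was not tested.

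Leaving out each library in turn gave 41 to 2096 genes higher and 28 to 1846 lower, 0 to 4 members higher and 0 to 10 lower, and 0 to 14 further mitosis genes higher and 0 to 27 lower. The median log2 fold change of the members ranged from -0.18 to 0.030. In 11 uncalled members the direction turned in such a fit. The ranges of log2 fold change were -0.50 to 1.98 for BUB1B, -0.020 to 0.49 for CCNA2, -0.18 to 0.69 for CCNB2, -0.21 to 0.46 for CENPE, -0.21 to 0.13 for ECT2, -0.011 to 0.083 for KIF11, -0.29 to 0.67 for KIF20A, -0.66 to 0.085 for MAD1L1, -0.94 to 0.30 for NCAPG, -0.10 to 1.75 for PLK1 and -0.29 to 0.10 for TOP2A.

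The replicate numbers name no shared animal or batch, and over genes the deviations of same-numbered libraries had a correlation of 0.0986. With the replicate number as a block, 874 genes were higher and 823 lower in GG, 1 member was higher and 5 were lower, 3 and 10 further mitosis genes were called, and NSL1 was not (adjusted p = 0.0523).

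With 2 libraries a group, the differences seen for CDK1 and NDC80 did not reach this threshold, although the libraries of each group lay close together. Reads amplified without molecular identifiers are not independent molecules.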
